A study of Bos taurus with 8 samples.

Results

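The genes described here are 40 ligands, receptors, SMAD proteins, antagonists and targets of the transforming growth factor beta (TGF-beta) and bone morphogenetic protein (BMP) pathway, measured in bovine granulosa cells. They were chosen by symbol and not by a measured value, though with earlier results of these data known. Of the 40 symbols, 38 were in the probe annotation of the array, which held 15229 distinct symbols, and ID4 and TGFBI, which were not among them, are not analysed here. Each gene was represented by its brightest probe, and 37 of the 38 probes were above background on at least 4 of 8 arrays. The probe of SMAD5 was above background on 0 arrays.

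The donors of the cells were Holstein cows on day 60 postpartum, whose dominant follicles, each over 9 mm, were emptied by aspiration 42 h after a PG injection that both groups received. Group BHBH held cows whose blood beta-hydroxybutyrate was high, with severe negative energy balance, and group BHBL held cows in which it was low, with mild negative energy balance. Each group comprised 12 cows in 4 pools of 3, so no value belongs to 1 cow. A BHBH pool and a BHBL pool were hybridised together on 2 two-colour arrays with exchanged dyes. All values are log2 ratios of BHBH over BHBL unless levels are named, and the mean of the 2 arrays is the ratio of a pool pair (n = 4 pool pairs). Which pools lay on which array is not labelled, and arrays with the same area number on slides 289 and 288 were taken as a pair.

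In this pathway dimeric ligands bring together type II and type I receptors, which are kinases. TGF-beta and activin type I receptors phosphorylate SMAD2 and SMAD3, BMP type I receptors phosphorylate SMAD1, SMAD5 and SMAD9, and both sets enter the nucleus with SMAD4. The inhibitory SMADs, the SMURF ubiquitin ligases, the SKI proteins and the secreted antagonists restrain the signal, and the ID genes are direct targets of the BMP arm. In the ovarian follicle these ligands pass between oocyte, granulosa and theca cells and act on steroid synthesis, growth and luteinisation.

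With limma on the 4 pool pairs, 0 of 32445 features (0%) were called at adjusted p under 0.05, the smallest adjusted p being 0.889, and 0 of the 37 members were among them. At unadjusted p under 0.05 there were 1699 features (5.24%) and 1 member (2.7%), TGFB2. By direction, 2.45% of all features were lower and 2.78% higher in BHBH at that threshold, with 0 members higher. When the 8 arrays were fitted with the area number as a replicate block, 48 features were called, 0 of them members. The number of pool pairs limits the precision of every value below. Each p-value sets a mean against the spread between pool pairs, which limma moderates with the spread of all features. An SE can therefore differ from that of a gene's 4 ratios alone. Of the 12 granulosa markers, among them FSHR and FOXL2, all 12 were above background on every array, and of the 8 endothelial markers 5 were, with PECAM1 above background on 2 of 8 arrays. The defining markers of theca cells (CYP17A1), macrophages (CD163), leukocytes (PTPRC), red cells (HBB) and epithelium (KRT8) were above background on 8 of 8 arrays as well.

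TGFB2, which encodes 1 of the TGF-beta isoforms (probe EMBV3_10895), was lower in BHBH in every pool pair and on 8 of 8 arrays. Its ratios in pairs 1 to 4 were -0.55, -1.30, -1.33 and -0.48. The arrays gave on slide 289 -0.82, -1.19, -1.09 and -0.34 and on slide 288 -0.29, -1.40, -1.56 and -0.62 for areas 1 to 4. The 2 lowest pairs were pairs 2 and 3, and no array had a ratio above 0. The mean was -0.91 ± 0.20 (SE, n = 4), with unadjusted p = 0.00763 and adjusted p = 0.889 by limma, so the difference did not pass the test over all features. TGFB2 entered that test through the BHBL channel alone, the group where it was higher, so its p and its signs are given as a description. Ratios below 0 in all 4 pairs were found for 6.31% of all features.

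The TGFB2 signal was weak. The BHBH channel exceeded background on 0 of 8 arrays and the BHBL channel on 5, both arrays of pairs 2 and 3 and 1 array of pair 4. On the scale of the normalised log2 channel intensities, its levels in BHBL pools 1 to 4 were 6.64, 7.84, 7.89 and 7.03, and in BHBH pools 6.04, 6.28, 6.43 and 6.48. The ranges of the 2 groups did not overlap, as for 2.91% of all features. The mean measured levels were 6.31 in BHBH and 7.35 in BHBL, and since no BHBH pool and not every BHBL pool was above background, no fold is given. In pooled cells, fewer cells of a type and less RNA per cell cannot be told apart.

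The surface epithelium markers, 9 of 9 of them above background, had median ratios below 0 in every pair. By limma 6 of 9 were lower at unadjusted p under 0.05, beside 2.45% of all features, with 0 at adjusted p under 0.05. These markers, like the other lists, were chosen with earlier results of these data known. Their median ratios in pairs 1 to 4 were -0.93, -2.90, -3.63 and -1.87, and their summed level ranged from 6742 to 110524 over the BHBH pools and from 50443 to 182451 over the BHBL pools. As with TGFB2, pairs 2 and 3 had the lowest medians. Their part in the TGFB2 values was not tested.

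The other TGF-beta ligands had no common direction over the pairs. TGFB1, the isoform best known from immune and wound tissue, had ratios of 0.33, 0.097, 0.38 and -0.16 and a mean of 0.16 ± 0.11, with 6 of 8 BHBH channels and 4 of 8 BHBL channels above background. TGFB3 had ratios of 0.97, -1.51, -0.44 and -0.24, so it was 1.96-fold higher in BHBH in pair 1 and 2.85-fold lower in pair 2. Its mean of -0.31 ± 0.42 (adjusted p = 0.955) was smaller than the spread between pairs, an SD of 1.02.

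**Figure D1:**
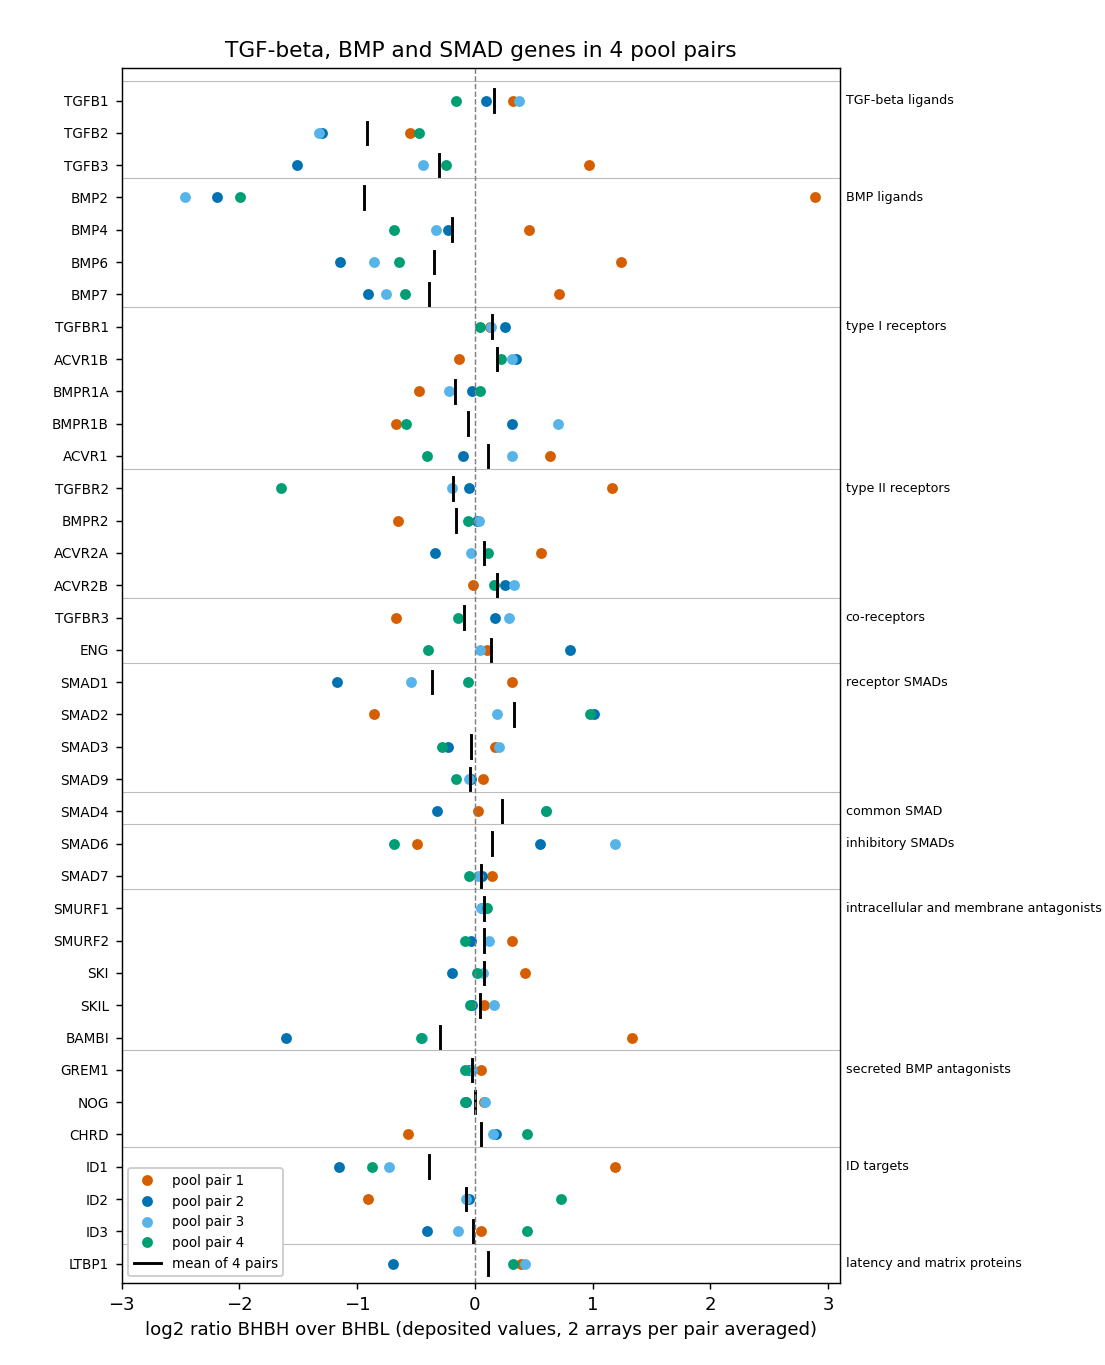
Log2 ratios of BHBH over BHBL (horizontal axis) for the 37 members above background, grouped by role, 1 point per pool pair and a black bar at the mean of 4 pairs. BMP2, BMP6, BMP7, BAMBI and ID1 have pair 1 on the right of 0 and pairs 2 to 4 on the left, and TGFB2 has all 4 pairs on the left.

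All 4 BMP ligands were higher in BHBH in pair 1 and lower in pairs 2, 3 and 4. BMP2, a ligand with its own single probe on this array (EMBV3_30451), differed by the widest margin of the members, with ratios of 2.89, -2.19, -2.46 and -1.996. It was 7.39-fold higher in BHBH in pair 1 and 4.55-fold, 5.52-fold and 3.99-fold lower in pairs 2, 3 and 4. The mean over the 4 pairs was -0.94 ± 1.06 (adjusted p = 0.943, limma), within the spread between pairs. At least 2-fold higher in pair 1 and at least 2-fold lower in the other three was seen for 48 of 32445 features (0.148%), and BMP2 was the 1 member among them.

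The log2 levels of BMP2 were 11.31, 8.43, 8.35 and 10.64 in BHBH pools 1 to 4 and 8.37, 11.01, 11.08 and 12.72 in BHBL pools 1 to 4. The high pools were BHBH pools 1 and 4 and BHBL pools 2, 3 and 4, and the low ones lay between 8.35 and 8.43. Both groups therefore held high and low pools and overlapped.

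BMP6, known in the cow as a product of granulosa cells and the oocyte, had ratios of 1.24, -1.14, -0.85 and -0.64 and a mean of -0.35 ± 0.45. Its BHBH pool of pair 1 stood at a log2 level of 8.88, and its other BHBH pools lay between 7.73 and 7.77. In BHBL the order was turned, with 7.69 in pool 1 and 8.55 to 9.23 in the other three.

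BMP7 and BMP4 are known in the cow mainly as products of theca cells. BMP7 had ratios of 0.71, -0.91, -0.75 and -0.59 (mean -0.39 ± 0.31), and BMP4 of 0.46, -0.22, -0.33 and -0.69 (mean -0.20 ± 0.20). The theca markers, 6 of 6 above background, had medians of -0.43, 0.025, -0.055 and 0.30 in pairs 1 to 4. These medians had the sign of the 2 ligands in pair 3 only, and those of pairs 2 and 3 were near 0. Single theca markers differed, with 2 of the 6 above 0 in pair 1 and 1 of 6, LUM, below 0 in pairs 2, 3 and 4. LUM had ratios of -1.19, -1.03, -2.57 and -0.059, and TCF21 had -1.28, 0.98, -1.83 and 0.67. The part of theca cells was not tested. The level of BMP7 also differed between pairs in both groups at once. It was 11.17 and 10.52 in BHBH pools 1 and 2, 10.38 and 11.55 in BHBL pools 1 and 2, and from 7.53 to 8.38 in the 4 pools of pairs 3 and 4. Pools that share an array were alike here on both slides, and for a channel level the pool pair and its area of the slide cannot be told apart.

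**Figure D2:**
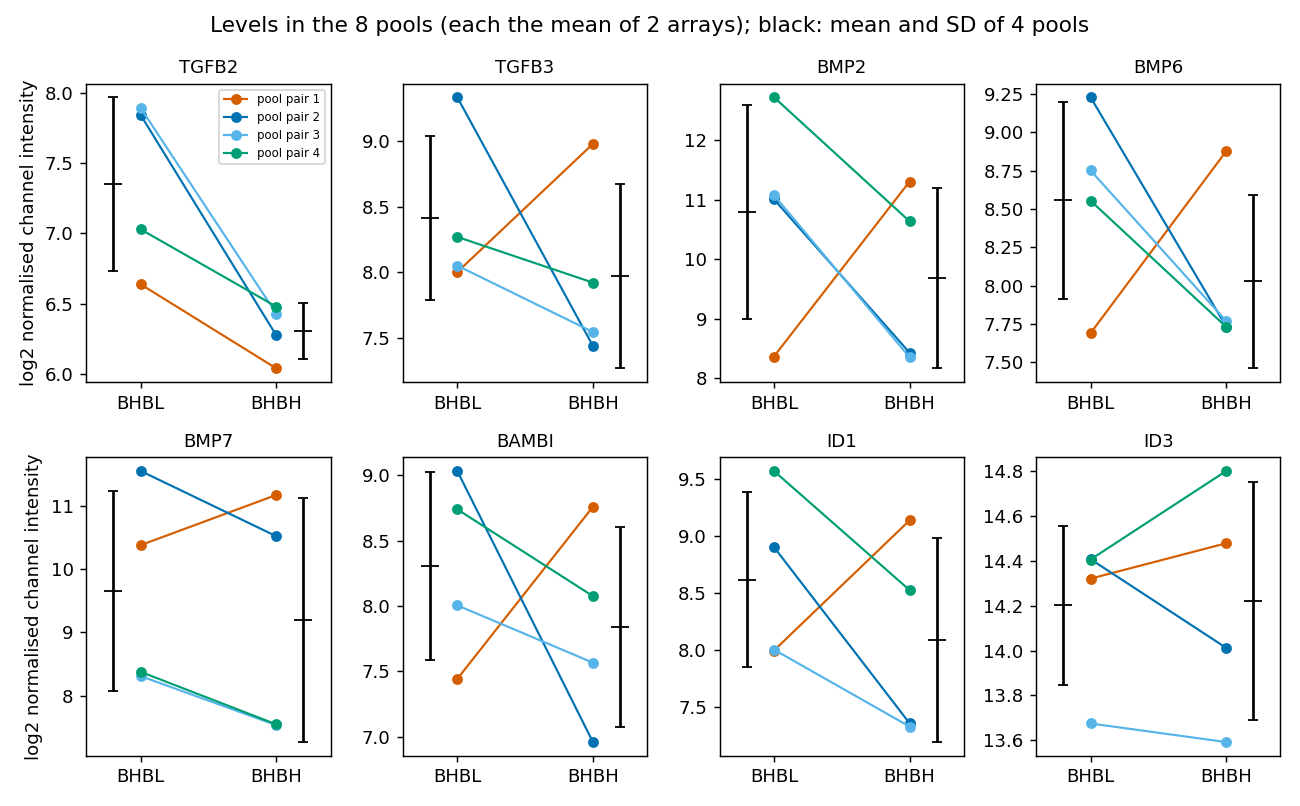
Log2 normalised channel intensity (vertical axis, a scale of its own for each gene) of 8 members in the 4 BHBL and 4 BHBH pools, each point the mean of 2 arrays, with a line joining the pools of a pair and black bars for the mean and SD of 4 pools. TGFB2 is lower in BHBH along all 4 lines, and for TGFB3, BMP2, BMP6, BMP7, BAMBI and ID1 the line of pair 1 runs against the other three.

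The signs of the BMP ligands were found in 11 of the 37 members (29.7%), against 7.81% of all features, a count made after the values were seen. The 11 were TGFB3, the 4 BMP ligands, TGFBR2, SMAD1, SMAD9, BAMBI, GREM1 and ID1. Since the 4 ligands set the pattern, their place in the count was fixed in advance and raises the share. For 8 of the 11, all but SMAD1, SMAD9 and GREM1, both arrays of every pair had the sign of the pair. With ratios computed from the scanner intensities, 9 of the 11 kept the sign in every pair, all but SMAD9 and GREM1. The converse, lower in pair 1 and higher in the other three, was seen for 4 members (ACVR1B, ACVR2B, SMAD2 and CHRD; 10.8%), near the 11.2% of all features.

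The medians of the stroma markers had the same signs as the BMP ligands. The 9 of 9 fibroblast and stroma markers above background had median ratios of 2.08, -0.52, -0.64 and -1.16 in pairs 1 to 4, and their summed level ranged from 14205 to 71983 in BHBH pools and from 14000 to 91090 in BHBL pools. In single genes, 9 of 9 stroma markers were above 0 in pair 1 and 6 of 9 below 0 in pairs 2, 3 and 4. Of the 9 epithelium markers, 4 were above 0 in pair 1, among them the keratin gene KRT8 with ratios of 3.62, -3.46, -4.07 and -1.90, and 5 below, while all 9 were below 0 in pairs 2, 3 and 4. The markers of leukocytes other than macrophages, 8 of 8 above background, had medians of 0.31, -0.88, -0.54 and -1.24. Their summed levels were 7451 to 17623 in BHBH pools and 11717 to 34727 in BHBL pools. Of these 8 genes, 5 were above 0 in pair 1 and 3 below 0 in pairs 2, 3 and 4. In pair 3 PTPRC, CD3E, CD3D and CD2 were above 0, from 0.19 to 0.68. S100A8, S100A9, CXCR2 and MS4A1 were below 0 there, from -4.49 to -1.27. The beta-globin gene HBB had 4.08, -4.87, -3.65 and 0.57, which shares the signs of the BMP ligands in pairs 1, 2 and 3. The red cell markers, 5 of 6 above background, had medians of 0.39, -0.87, -0.72 and 0.23. In single genes, 4 of the 5 were above 0 in pair 1 and 2 of 5 below 0 in pairs 2, 3 and 4. AHSP went the other way from HBB in pairs 1 and 3, at -0.075 and 0.31. Granulosa markers had medians of -0.44, 0.64, 0.036 and 0.72, of the opposite sign in pairs 1, 2 and 4 and near 0 in pair 3. In pair 1, 11 of the 12 were below 0. In pair 3 single markers had both signs, from CYP19A1 at -1.41 to LHCGR at 1.56. Their summed level ranged from 150132 to 215613 in BHBH pools and from 126603 to 215834 in BHBL pools. That sum includes INHA and INHBA, which were saturated on 8 of 8 arrays. Among the markers FSHR was at -1.52, 1.23, -0.47 and 2.04 and FOXL2 at -0.29, 0.46, 0.11 and 0.43. The part of any of these cell types in the ratios of the BMP ligands was not tested.

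**Figure D3:**
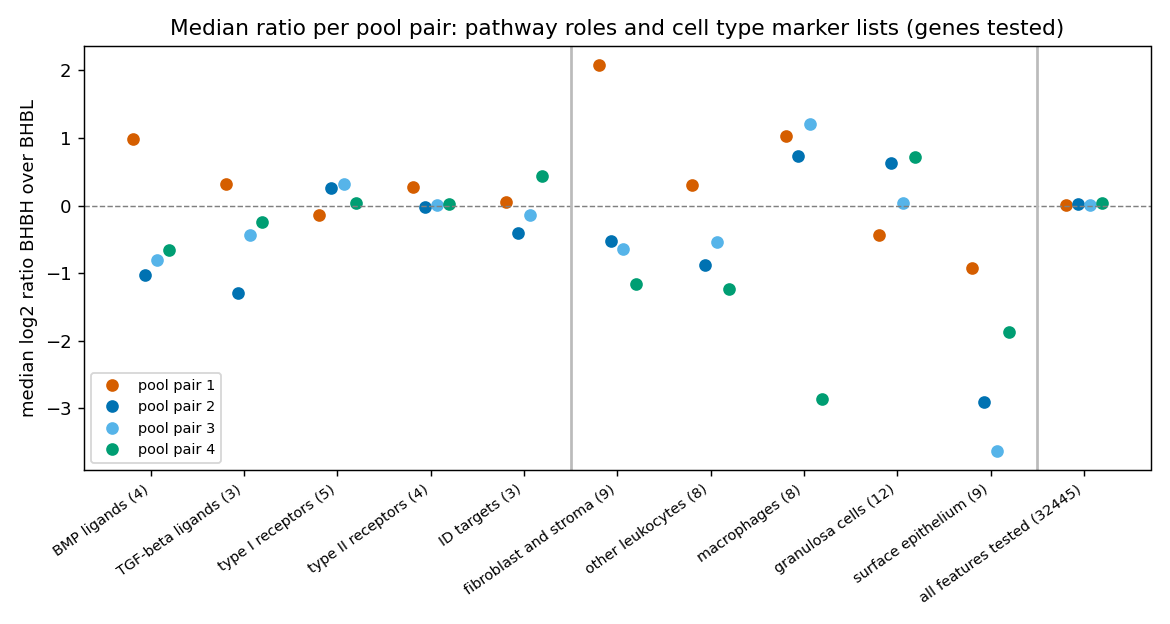
Median log2 ratio of BHBH over BHBL (vertical axis) per pool pair for 5 groups of members, 5 lists of cell type markers and all features tested, with the number of genes in brackets. BMP ligands and stroma markers lie above 0 in pair 1 and below it in pairs 2 to 4, while the medians of all features lie between 0.0036 and 0.035.

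Type I receptors, the kinases that phosphorylate SMADs, had mean ratios between -0.17 and 0.19. TGFBR1, the TGF-beta type I receptor, was higher in all 4 pairs, with ratios of 0.13, 0.26, 0.14 and 0.044. The arrays gave on slide 289 0.36, 0.34, 0.22 and 0.20 and on slide 288 -0.093, 0.18, 0.066 and -0.11 for areas 1 to 4, so 6 of 8 were above 0. Its mean was 0.14 ± 0.057 (unadjusted p = 0.0587, adjusted p = 0.915, limma), but the BHBH channel exceeded background on 4 of 8 arrays and the BHBL channel on 1, so that it too entered the test through the group where it was higher.

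ACVR1B, the activin type I receptor, was bright on every array, with ratios of -0.14, 0.35, 0.32 and 0.22 and a mean of 0.19 ± 0.10 (adjusted p = 0.915). Its array ratios were on slide 289 -0.37, 0.14, 0.16 and 0.070 and on slide 288 0.10, 0.56, 0.48 and 0.37, so 7 of 8 were above 0 and pair 1 was the low one. The BMP type I receptors BMPR1A and BMPR1B, of which BMPR1B carries a fecundity mutation in sheep, had means of -0.17 ± 0.10 and -0.058 ± 0.28. BMPR1B had both signs, at -0.67, 0.32, 0.71 and -0.58, and the brighter of its 2 further probes had the same 4 signs. ACVR1, which binds BMPs and activin, averaged 0.11 ± 0.19, with pair 4 lowest (-0.40) and pair 1 highest (0.64), and its further probe averaged -0.019.

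Among type II receptors, TGFBR2 had the widest spread. TGFBR2, the receptor that binds TGF-beta itself, had ratios of 1.16, -0.046, -0.20 and -1.64, a 2.24-fold higher value in BHBH in pair 1 and a 3.12-fold lower value in pair 4. Its mean was -0.18 ± 0.48, and the low pool was BHBH pool 4, at a log2 level of 8.10 against 9.26 to 10.55 over the other 7 pools. Its 2 further probes, which were dimmer, averaged 0.079 and 0.042 and did not show this spread. Pair 1 gave 0.036 for the first and 0.053 for the second, and pair 4 gave 0.012 and -0.036. The macrophage markers, 8 of 9 of which were above background with MRC1 not in the annotation, had medians of 1.04, 0.74, 1.21 and -2.87, so they too were lowest in pair 4, with CD163 at 0.91, 2.52, 1.58 and -4.39. Their summed level ranged from 5869 to 64459 in BHBH pools and from 19181 to 63886 in BHBL pools, and their part in the TGFBR2 value was not tested.

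The other type II receptors spanned less than 1 on the log2 scale. ACVR2B, an activin and BMP type II receptor, had ratios of -0.017, 0.26, 0.34 and 0.17 and a mean of 0.19 ± 0.076 (unadjusted p = 0.0659, adjusted p = 0.915, limma). Its array ratios were on slide 289 -0.072, 0.23, 0.35 and 0.0038 and on slide 288 0.039, 0.28, 0.32 and 0.33, with 7 of 8 above 0. ACVR2A was at 0.076 ± 0.16 and BMPR2, the BMP type II receptor, at -0.16 ± 0.14. BMPR2 lay between -0.054 and 0.037 in pairs 2 to 4 and at -0.65 in pair 1, and its 2 further probes averaged 0.21, of opposite sign.

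The co-receptors present ligand to the receptor pairs. TGFBR3 (betaglycan), which binds TGF-beta and inhibin, averaged -0.089 ± 0.18, with pair 1 lowest (-0.67) and pair 3 highest (0.29). The mean of its 2 further probes was 0.033, of opposite sign. Yet 1 of them, at -0.41, 0.083, 0.51 and -0.14, had the same 4 signs as the probe used. The other, at 0.058, -0.047, 0.27 and -0.055, had the opposite sign in pairs 1 and 2. ENG (endoglin), best known from endothelium, was at 0.14 ± 0.21, with 0.81 in pair 2 as its highest ratio and -0.40 in pair 4 as its lowest. The endothelial markers, of which 6 of 8 were above background, had medians of 0.10, -0.11, 0.028 and 0.080.

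SMAD1 and SMAD2, receptor-activated SMADs of different arms, had opposite signs in every pair. SMAD1, a BMP-arm SMAD, had ratios of 0.32, -1.17, -0.55 and -0.061 and a mean of -0.37 ± 0.27 (adjusted p = 0.92), while SMAD2, of the TGF-beta and activin arm, had -0.85, 1.01, 0.19 and 0.98 and a mean of 0.33 ± 0.37 (adjusted p = 0.943). Neither mean was larger than the spread between pairs. The further probe of SMAD2 had the same sign in each pair but a mean of -0.092. SMAD3 was at -0.032 ± 0.11 with its pairs between -0.28 and 0.20, and SMAD9 at -0.041 ± 0.058. For SMAD5, not above background on any array, no level or ratio is given.

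SMAD4, the common partner of both arms, had ratios of 0.031, -0.32, 0.61 and 0.60 and a mean of 0.23 ± 0.19, and its 2 further probes averaged 0.19. Its highest pairs were pairs 3 and 4. The inhibitory SMADs, which block receptor access, differed from each other. SMAD6, which mainly restrains the BMP arm, had -0.49, 0.55, 1.19 and -0.69, high in pairs 2 and 3 and low in pairs 1 and 4, with a mean of 0.14 ± 0.37. SMAD7, which restrains both arms, stayed between -0.049 and 0.15, with 4 of 8 arrays above background in BHBL.

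Antagonists inside the cell, by their brightest probes, had means between 0.044 and 0.081, BAMBI apart. The ubiquitin ligase gene SMURF1 was higher in all 4 pairs by 0.099, 0.063, 0.050 and 0.10, yet on 5 of 8 arrays only, and with scanner ratios its mean was 0.012. SMURF2, SKI and SKIL, of which the last 2 encode nuclear corepressors of SMADs, had means of 0.081 ± 0.085, 0.081 ± 0.11 and 0.044 ± 0.058. Of the 2 further SKI probes, 1 averaged -0.32 and was below 0 in all 4 pairs, at -0.071, -0.18, -0.67 and -0.35, and the other averaged 0.0026. BAMBI, a membrane pseudoreceptor without a kinase domain, had a wider range. Its ratios were 1.34, -1.60, -0.45 and -0.46, its mean was -0.29 ± 0.50 (adjusted p = 0.965), and a further probe above background averaged -0.17 with the same 4 signs. BAMBI was 2.53-fold higher in BHBH in pair 1 and 3.03-fold lower in pair 2.

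The secreted BMP antagonists, which hold ligand away from its receptors, did not share the range of the ligands. GREM1 had pair ratios between -0.085 and 0.052, and NOG (noggin) between -0.086 and 0.089, above background on 4 of 8 arrays in each group. CHRD (chordin) had -0.56, 0.18, 0.15 and 0.44, lowest in pair 1, where the BMP ligands were highest, with a mean of 0.053 ± 0.18. LTBP1, which tethers latent TGF-beta to the matrix, had 0.40, -0.69, 0.43 and 0.33, with pair 2 the low one.

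The ID genes encode helix-loop-helix proteins without a DNA-binding region, which sequester other transcription factors. ID1 (probe EMBV3_06655) had ratios of 1.19, -1.15, -0.73 and -0.87, 2.29-fold higher in BHBH in pair 1 and 1.83-fold lower in pair 4, with a mean of -0.39 ± 0.45 (adjusted p = 0.943). In the pools, its log2 levels were 9.14, 7.35, 7.33 and 8.53 in BHBH and 7.99, 8.90, 8.003 and 9.57 in BHBL, so the groups overlapped.

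ID2 and ID3 did not have the signs of ID1. ID2 had ratios of -0.91, -0.050, -0.073 and 0.73, lowest in pair 1 and highest in pair 4, and a mean of -0.074 ± 0.28. ID3 had 0.053, -0.40, -0.14 and 0.44 and a mean of -0.013 ± 0.15, and its 4 further probes ranged from -0.090 to 0.097. The log2 levels of ID3 lay between 13.59 and 14.80 over all 8 pools.

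Across the 37 members, 18 mean ratios were above 0 (48.6%, all features 56.1%) and 19 below, with a median of -0.013 beside 0.016 for all features. Ratios of 1 sign throughout belonged to 3 members (8.11%), TGFB2, TGFBR1 and SMURF1, below the 15.5% of all features. Of these TGFBR1 and SMURF1 were higher (5.41%, all features 9.21%). Pair ratios that spanned at least 2 on the log2 scale were seen for 6 members (16.2%), TGFB3, BMP2, BMP6, TGFBR2, BAMBI and ID1, beside 5.52% of all features. The median SD over pairs was 0.433 for the members and 0.197 for all features. The median size of the mean ratio was 0.142 for the members and 0.0753 for all features. All features comprised 14081 named genes and 18364 probes without a symbol, while 34 of the 37 members were above background on all 8 arrays. The 2 sets were not matched for intensity, so the wider spread of the members cannot be read as particular to this pathway.

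Without pool pair 1, 9 members (24.3%) were at unadjusted p under 0.05 in place of 1, beside 9.28% of all features. Without it BMP2 was at -2.22 ± 0.12 (SE, n = 3), BMP7 at -0.75 ± 0.088, BMP6 at -0.88 ± 0.12, BMP4 at -0.41 ± 0.12, ID1 at -0.92 ± 0.11 and TGFB2 at -1.03 ± 0.22, 6 lower in BHBH (16.2%). ACVR1B (0.30 ± 0.060), ACVR2B (0.25 ± 0.064) and SMAD2 (0.73 ± 0.21) were higher (8.11%). In the same fit 3.92% of all features were lower and 5.36% higher at that threshold. Adjusted p by limma ran from 0.348 for BMP2 to 0.506 for SMAD2, so 0 members were called, and pair 1 was left out with its ratios known. Without pair 2, LTBP1 joined TGFB2 at unadjusted p under 0.05, without pair 4 TGFB1 did, and without pair 3 TGFB2 was again the 1 member. Ratios of 1 sign in all remaining pairs belonged to 18 members without pair 1 (48.6%, all features 34.6%), 6 without pair 2 (16.2%, all features 26.4%), 3 without pair 3 (8.11%, all features 22.7%) and 8 without pair 4 (21.6%, all features 28.5%).

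**Figure D4:**
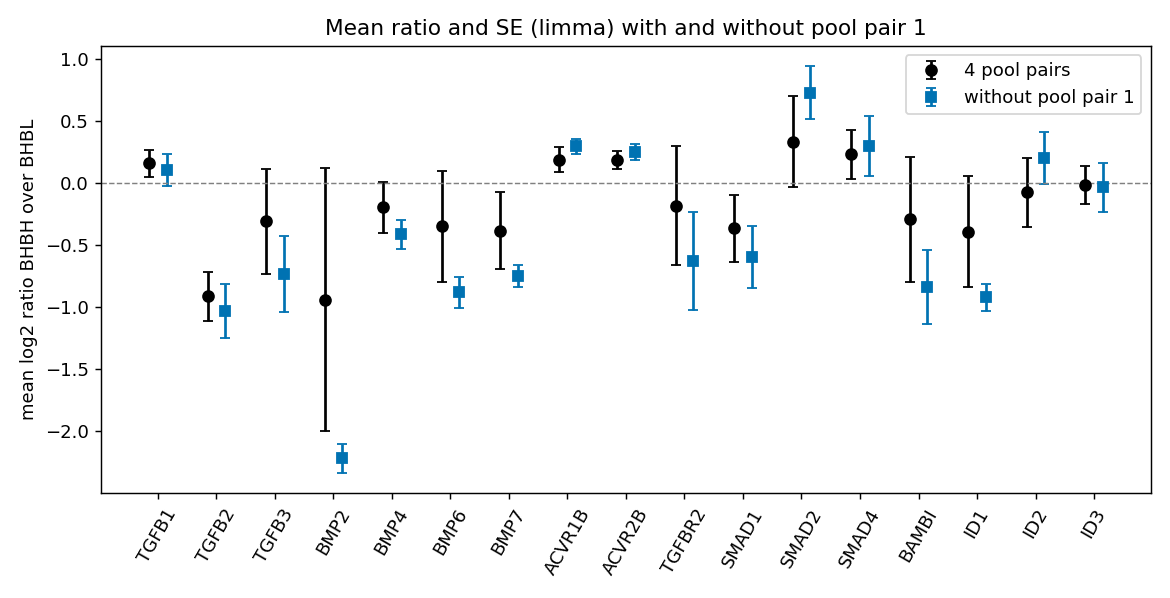
Mean log2 ratio of BHBH over BHBL with its SE from limma (vertical axis) for 17 members, over 4 pool pairs (black circles) and without pool pair 1 (blue squares). BMP2 moves from -0.94 to -2.22 with a smaller SE, and TGFB2 from -0.91 to -1.03.

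Of 79 other genes of the pathway, 61 were above background. None of these 61 was called at adjusted p under 0.05 by limma, and 2 were at unadjusted p under 0.05, both lower in BHBH, against 2.45% of all features. CDKN2B, a cyclin-dependent kinase inhibitor induced by TGF-beta, had ratios of -1.25, -3.94, -4.65 and -0.82 and was below 0 on 8 of 8 arrays. Its mean was -2.66 ± 0.79, 6.34-fold lower (adjusted p = 0.915), and a further probe was at -1.31. As for TGFB2, pairs 2 and 3 were the lowest.

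CTGF, a matrix-associated protein and a target of TGF-beta, had ratios of 0.22, -3.08, -3.58 and -2.16 and a mean of -2.15 ± 0.70, 4.44-fold lower (adjusted p = 0.915). Its log2 levels were 12.56, 12.96, 13.46 and 13.13 in BHBL pools and 12.89, 9.75, 9.84 and 10.72 in BHBH pools, where pool 1 lay within the BHBL range and the other three below it. Without pair 2, and likewise without pair 3, neither gene was at unadjusted p under 0.05, and without pair 4 CTGF was not. TRIM33, a ubiquitin ligase that acts on SMAD4, was at -0.38 ± 0.16, but at 0.13 with scanner ratios, and ACVR1C, a type I receptor of activin and Nodal, at 0.095 ± 0.053.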

How the data were processed

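Granulosa cell RNA of 4 BHBH and 4 BHBL pools was compared on 8 two-colour arrays with 43794 probes. Per the labels, RNA was amplified with RiboAmp HSPlus and labelled by the ULS method, with BHBH in Cy5 on slide 289 and in Cy3 on slide 288. The deposited scanner files hold median intensity per spot and channel, per the file headers, without background correction. The series table, as deposited, gives log2 ratios for which the submitters' processing notes name limma without a version, with their background and dye correction not given in the sources used here. Their medians per array ran from -0.014 to 0.040, so each array is centred near 0. Against ratios computed here from the scanner intensities and given the direction BHBH over BHBL from the dye labels, they correlated at 0.941 to 0.96 across probes on all 8 arrays, so the deposited ratios run as BHBH over BHBL on both slides, and no sign was turned.

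Gene names come from the array's platform annotation: 21790 probes had 1 symbol and the others none. A gene was represented by its brightest probe (mean log2 of both channels over 8 arrays), probes without a symbol were kept, and a feature was tested if its foreground exceeded the mean plus 2 SD of 153 negative control spots on 4 or more of the 8 arrays, in 1 channel or both. The ratios of both arrays of an area number were averaged, so that a shared offset of dye and slide drops out. The area number pairs the arrays by these data: deviations from the slide mean correlated across features at 0.883 to 0.927 for arrays of 1 area and at most -0.0362 between areas on different slides. The 4 ratios were tested against 0 with limma 3.58.1 (lmFit, eBayes) in R 4.3.3, with Benjamini-Hochberg adjustment over 32445 features, and the errors are its SEs. Pool levels are log2 channel intensities after normexp (offset 50), loess and quantile normalisation of the array averages, both arrays of a pool averaged. The series' design text calls the 2 arrays of a pool technical replicates, so each pair counts once.

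The members, lists and tests were chosen with earlier results of these data known. All 4 ratios are given for members at unadjusted p under 0.05, with 1 sign in all pairs, or with a span of at least 2, and for the ID genes, and array ratios for the 4 members with the smallest p. For some others they were added after the values were seen. Of the other pathway genes, the 4 with the smallest p are named. Symbols on the lists were matched through older names in the RefSeq gene table for 3 genes. The fit was tested on simulated data. Alternatives covered the scanner ratios, background correction, normalisation, centring, the filter, the probe rule, the fit of 8 arrays, each slide, the variance model, array weights, separate channels and each pool pair left out.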

Additional observations from a re-analysis of the deposited data

Results flagged for a closer look

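In 3 of the 37 members 1 pool pair lay far from the other three, where chance alone gives about 1 in 20. BMP2 was at 2.89 in pair 1 against -2.46 to -1.996 in pairs 2 to 4. BMPR2 was at -0.65 in pair 1 against -0.054 to 0.037, but its 2 further probes were at -0.051 and 0.27 in pair 1. LTBP1 was at -0.69 in pair 2 against 0.33 to 0.43 in the other pairs.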

How the results depend on the processing

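Of 663 member values under alternatives, 645 moved by less than 1 SD between pairs and 18 by more, and 66 had the other sign. The sign of 13 members held under all alternatives, among them TGFB2, BMP2, BMP6, BMP7, ID1 and SMAD2, and 0 members were called at adjusted p under 0.05 in any. SMAD7 and SMAD9 were also among the 13, with values as small as 0.016 and -0.0018. The share over all features was not computed, and a mean that kept its sign can hold pairs of both signs, as for BMP2. TGFB2 ranged from -1.07 to -0.78, with adjusted p from 0.0575 to 1. The 0.0575 came from a limma fit of the 8 arrays. In every setting other than the fits of 8 arrays, the smallest adjusted p over all features was at least 0.097. With the area number as a replicate block 48 features were called, and 261 with the 8 arrays and no replicate block, which treats technical repeats as independent. The block changed no call of a member. Members at unadjusted p under 0.05 are given with the share of all features. They numbered 2 with no background correction (5.02%), 2 without the filter (5.41%), 0 with probes above background on all 8 arrays (5.09%; TGFB2 is then not tested), 4 with 8 arrays and no block (14%), 5 on slide 289 (15.6%) and 6 on slide 288 alone (23%), 3 with a trended and robust variance (6.17%) and 4 with array weights (7.3%). Leaving out each pair in turn gave 1 to 9, with 2.94% to 9.28% of all features. Ratios of 1 sign throughout belonged to 1 member with probes above background on all 8 arrays and to 7 on either slide alone. For these settings the share of all features was not computed. The 7 on each slide include GREM1, below 0 in every area of slide 289 and above 0 in every area of slide 288, and SKIL, which was the reverse. With each pair left out the members numbered 3 to 18, beside 22.7% to 34.6% of all features. Other pathway genes at unadjusted p under 0.05 numbered 5 on slide 289, 8 on slide 288 and 0 to 8 with each pair left out. On each slide alone dye and group cannot be told apart. The cause of the other differences was not tested.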

Other observations

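Without pool pair 1, further genes of the pathway that were not members stood beside the BMP ligands, chosen here after their values were seen. CTGF was at -2.94 ± 0.32 (SE, n = 3 pool pairs), THBS1, a matrix protein that activates latent TGF-beta, at -1.74 ± 0.38, FSTL3, a binding protein of activins, at -1.31 ± 0.32, and DCN (decorin), a proteoglycan of connective tissue that binds TGF-beta, at -1.59 ± 0.46. In pair 1 these genes were at 0.22, 1.92, 2.24 and 2.08, all above 0. Higher in pair 1 and lower in the other three pairs was seen for 13 of the 61 other pathway genes, beside 7.81% of all features. DCN is also 1 of the 9 stroma markers.

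The BMP7 levels, high in the 4 pools of pairs 1 and 2 and low in the 4 pools of pairs 3 and 4 whatever the group, had the same arrangement in 3 other pathway genes, also picked after their values were seen. ITGB6, an integrin subunit that activates latent TGF-beta, lay between 10.46 and 12.45 on the log2 scale in pools 1 and 2 of both groups and between 7.56 and 7.81 in pools 3 and 4. LRRC32, a docking protein for latent TGF-beta, lay between 8.88 and 10.53 against 7.01 to 7.32. FBN2, a fibrillin of the microfibrils that hold TGF-beta and BMP complexes, lay between 9.81 and 10.93 against 7.62 to 7.95. The pool pair and its area of the slide cannot be told apart here.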
